A study of Mus musculus with 6 samples.

Results

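The Dmrt genes encode transcription factors that share the DM domain, a zinc-containing DNA-binding module named after Doublesex of the fly and MAB-3 of the worm. The genes described here are Dmrt1, Dmrt2, Dmrt3, Dmrta1 and Dmrta2, taken by symbol as 5 of the 24453 gene rows of the count tables. They were picked with the contrast of 2KO and control libraries already known, so their levels in that contrast are given as a description, with no p-value, and nothing is read from whether they were called. RNA was sequenced from sorted cells of newborn mouse back skin at postnatal day 0, in 3 libraries of genotype Ring1a-/- Ring1b-/-, labelled 2KO, and 3 libraries labelled control. The cell type label reads hair follicle, while the protocol attached to the same samples describes a sort of EpCAM-positive, Sca1-positive cells high in α6-integrin from interfollicular epidermis. The Cre driver or other means of deletion, the alleles that control animals carried and whether each library came from 1 animal were not given in the sources used here. P-values therefore measure only the spread between these libraries, which may in part be technical. By the sex transcripts given below, each group held animals of both sexes.

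As background, Ring1 and Rnf2 encode RING1A and RING1B, the paired ubiquitin ligases of Polycomb repressive complex 1, which marks chromatin and keeps many developmental regulators silent in cells that do not use them. Dmrt1 maintains male identity in the mouse testis and acts in spermatogonia. Dmrt3 acts in spinal interneurons that set locomotor rhythm and in the embryonic cortex, Dmrt2 acts in the dermomyotome of the somites, and Dmrta2 acts in the cortical hem and medial pallium of the forebrain. In bulk RNA, fewer cells that express a gene and less RNA per cell cannot be told apart.

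Dmrt1, Dmrt3 and Dmrt2 are neighbours. In GENCODE vM21 (GRCm38, also called mm10) they lie on the plus strand of chromosome 19, Dmrt1 from 25505618 to 25604329, Dmrt3 from 25610301 to 25623921 and Dmrt2 from 25672411 to 25678991, so that the 3 genes span 173 kb with gaps of 5.97 and 48.5 kb between them. Dmrta1 (89679436 to 89694772) and Dmrta2 (109978053 to 109983687) lie on the plus strand of chromosome 4. No other annotated gene overlaps any of the 5. The longest stretch that transcripts of any pair share exactly is 27 nt, between Dmrta1 and Dmrta2, against reads of 100 nt.

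The promoters of the members are shown because Polycomb complexes are known to occupy promoters rich in CpG dinucleotides. RefSeq (GRCm38.p6) sequences of 300 bases, from 250 before to 50 after the start, matched 4 of the 5 members, all but Dmrt1. The start is that of the RefSeq transcript, which for Dmrta1 (89688198) is also the start of the protein-coding GENCODE transcript and lies 8.76 kb inside the gene's outer bounds given above, which a noncoding transcript sets. For Dmrt3 it lies 236 bp inside those bounds, for Dmrt2 at their start and for Dmrta2 28 bp before it. They are printed 5′ to 3′ with each CG in capitals.
Dmrt3 (chr19:25610287-25610586, plus strand): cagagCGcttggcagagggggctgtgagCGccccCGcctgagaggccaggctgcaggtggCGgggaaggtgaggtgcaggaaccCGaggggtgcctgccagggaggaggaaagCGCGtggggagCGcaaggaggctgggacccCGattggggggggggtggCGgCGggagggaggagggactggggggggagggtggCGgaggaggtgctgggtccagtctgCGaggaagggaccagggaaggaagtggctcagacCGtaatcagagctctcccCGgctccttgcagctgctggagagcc
Dmrt2 (chr19:25672161-25672460, plus strand): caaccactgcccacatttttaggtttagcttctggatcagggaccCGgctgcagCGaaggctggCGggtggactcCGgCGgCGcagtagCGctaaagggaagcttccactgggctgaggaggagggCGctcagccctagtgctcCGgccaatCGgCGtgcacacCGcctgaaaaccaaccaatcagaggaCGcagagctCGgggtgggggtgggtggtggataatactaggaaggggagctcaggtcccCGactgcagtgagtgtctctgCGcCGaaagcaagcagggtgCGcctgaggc
Dmrta2 (chr4:109977775-109978074, plus strand): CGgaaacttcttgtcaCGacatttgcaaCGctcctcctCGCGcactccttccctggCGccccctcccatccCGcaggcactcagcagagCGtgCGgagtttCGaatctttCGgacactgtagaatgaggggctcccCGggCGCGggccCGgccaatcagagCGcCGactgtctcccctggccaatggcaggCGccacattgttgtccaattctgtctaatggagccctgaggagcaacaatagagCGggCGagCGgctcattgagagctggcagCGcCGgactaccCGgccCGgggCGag
Dmrta1 (chr4:89687948-89688247, plus strand): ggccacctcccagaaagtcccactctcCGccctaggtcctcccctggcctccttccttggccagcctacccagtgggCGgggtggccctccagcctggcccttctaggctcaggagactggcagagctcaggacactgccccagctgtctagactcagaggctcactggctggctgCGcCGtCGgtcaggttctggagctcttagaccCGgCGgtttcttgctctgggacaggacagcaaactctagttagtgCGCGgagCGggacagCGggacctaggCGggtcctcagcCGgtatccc

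All 4 promoters were rich in G and C. The GC content was 70.7% at Dmrt3, 62.7% at Dmrt2, 63.7% at Dmrta2 and 65.3% at Dmrta1, against a median of 52.7% over 32851 promoters of the same length. Their CpG content spread more widely. Dmrta2 had 26 CG dinucleotides and an observed-over-expected CpG ratio of 0.859, higher than 84.1% of all promoters. Dmrt2 had 18 and a ratio of 0.625 (above 65.8% of promoters), Dmrt3 had 15 and a ratio of 0.471 (above 56.2%), and Dmrta1 had 13 and a ratio of 0.408 (above 52.0%), while the median over all promoters was 7 and a ratio of 0.384. With the 250 bases before the start alone, Dmrta1 was below the median promoter (0.281 against 0.373). The order by CpG ratio was Dmrta2, Dmrt2, Dmrt3 and Dmrta1. The relation of CpG content to the levels given below was not tested.

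**Figure D1:**
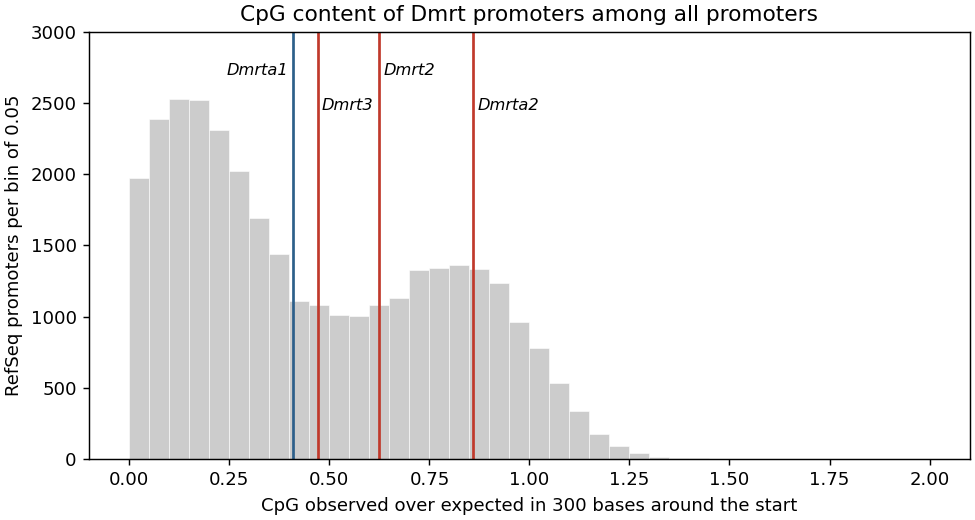
Number of RefSeq promoters (y axis) in bins of 0.05 of the observed-over-expected CpG ratio in the 300 bases around the start (x axis), with vertical lines at Dmrta1 (blue), Dmrt3, Dmrt2 and Dmrta2 (red). The lines run from 0.408 at Dmrta1 to 0.859 at Dmrta2, beside a median promoter at 0.384 in this window.

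Motifs were searched on both strands. The letters ACANTGT, a palindromic core of the sites that DM domain proteins bind, occurred at 2 positions of the Dmrta2 promoter and in none of the other 3, and 7.54% of all promoters hold them. CCAAT occurred 3 times at Dmrta2, 2 times at Dmrt2, once at Dmrt3 and not at Dmrta1 (37.4% of all promoters hold it). GGGCGG was found 2 times at Dmrta1 and at none of the others (35.7% of all promoters), and TATAAA at none of the 4 (13.6% of all promoters). These matches describe letters in this window and show no binding.

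Library totals lay between 24.8 and 29.9 M counts (1 M is 1e6) in 2KO and between 28.2 and 30.8 M in control, so that 1 count stood for 0.0323 to 0.0392 CPM (counts per 1e6 counts, scaled by edgeR's TMM factors). The knocked-out genes did not check the labels. Ring1 was at 1.84, 7.34 and 14.1 CPM in the 2KO libraries and at 19.5, 22.4 and 3.37 CPM in the control libraries, and Rnf2 was at 75.3, 66.4 and 89.1 CPM in 2KO and at 67.6, 79.4 and 47.1 CPM in control, with edgeR adjusted p = 0.537 and 0.615. The sources used here do not name the deleted exons, and a total over all exons cannot show a deletion if the remaining exons are transcribed. For this reason directions below hold between libraries so labelled. Epcam (282 ± 65.7 CPM in 2KO, 195 ± 51.8 in control, SD, n = 3 each) and Itga6 (972 ± 108 and 782 ± 97.1 CPM in 2KO and control) were high, while Ly6a, which encodes Sca1, was low throughout (4.66 ± 2.68 CPM in 2KO and 4.26 ± 1.31 in control). The sexes of the animals were mixed by their RNA. 2KO replicates 1 and 2 and control replicate 3 had 4553 to 5358 CPM of Xist, which females express, and 2KO replicate 3 and control replicates 1 and 2 had 113 to 126 CPM of the Y-linked Ddx3y.

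Dmrt3 was detected in every 2KO library and in no control library. It reached 14.5, 11.4 and 18.5 CPM in the 2KO libraries, from 371, 343 and 471 counts, and had 0 counts in all 3 control libraries. The groups did not overlap. Taken over each group, Dmrt3 was at least 438-fold higher in 2KO, a bound against a floor of 3 counts over the control libraries (0.0334 CPM). Of 129 genes with 0 counts in every control library and at least 1 count in every 2KO library, 0.528% of all rows, Dmrt3 had the highest mean CPM in 2KO, a scale not corrected for length. This set leaves out genes with any control count, and some of those were higher in 2KO. Zic1 averaged 48.4 CPM in 2KO with 4 counts in control, and Barx1 averaged 37.7 CPM in 2KO and 0.0215 CPM in control.

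Dmrt1 was likewise detected in 2KO libraries alone. It reached 4.90, 3.10 and 6.98 CPM in 2KO (125, 93 and 178 counts) with 0 counts in each control library, at least 146-fold higher over the group. It stood 8th of the same 129 genes. The groups did not overlap, and the lowest 2KO library was replicate 2. Without 1 of the control libraries the bound becomes lower by construction, 95.8 to 100.4 for Dmrt1 and 287 to 300.3 for Dmrt3.

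Dmrt2 was at 2.82, 10.9 and 4.16 CPM in the 2KO libraries (72, 326 and 106 counts). In the control libraries it had 2 counts in replicate 1 (0.0709 CPM) and 0 in replicates 2 and 3. The groups did not overlap, yet the 2KO libraries differed 3.85-fold among themselves, replicate 2 standing far above the other 2. The ratio of the groups was 279 (95% exact counting interval 76.9 to 2313). Without 2KO replicate 2 the mean in 2KO was 3.49 CPM instead of 5.95 and the ratio 157 (42.7 to 1303), with the TMM factors of all 6 libraries kept. Without control replicates 2 or 3 the ratio was 183 and 184, and without control replicate 1, which held both control counts, it was a bound of at least 128.

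Dmrta2 alone among the 5 was measurable in every control library. It was at 5.41, 5.97 and 4.98 CPM in 2KO (138, 179 and 127 counts) and at 0.284, 0.355 and 0.294 CPM in control (8, 11 and 9 counts). The 2KO libraries lay within 1.20-fold of each other, and no control library came near them. The log2 fold change was 4.11 (SE 0.53). The ratio of counts pooled over each group, scaled by the pooled library sizes, was 17.6 (95% exact counting interval 11.99 to 26.8). The control level of Dmrta2 was above the 3-count floor in each library, so the gene was low there and not merely undetected.

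Dmrta1 was all but undetected. It had 1 count in 2KO replicate 1 and 0 counts in the other 5 libraries, and both groups lay under the floor, so no fold is given. The floor of 3 counts was 0.0370 CPM over the 2KO libraries, so a level below that was not detectable at this depth. Dmrta1 is also the member that failed the filter on low counts.

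**Figure D2:**
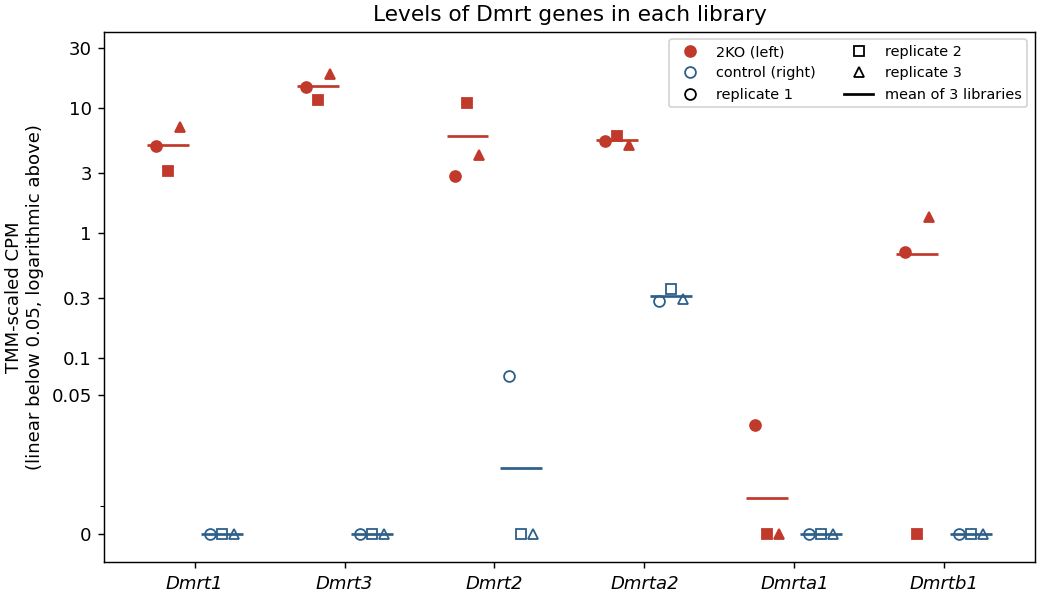
TMM-scaled CPM (y axis, linear below 0.05 and logarithmic above) of the 5 members and Dmrtb1 in each library, 2KO in filled red on the left and control in open blue on the right of each gene, with the replicate given by the shape and the mean of 3 libraries by a bar. Dmrt3 sits between 11.4 and 18.5 CPM in 2KO and at 0 in control, Dmrta2 is the one gene above 0.2 CPM in control, and Dmrta1 is near 0 in all 6 libraries.

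Over all genes, edgeR's quasi-likelihood test called 989 of 14972 tested genes higher in 2KO (6.61%) and 362 lower (2.42%) at an adjusted p under 0.05, or 9.02% in either direction. Without control replicate 3, 615 were called higher, and the count of lower genes was 184 to 236 without 2KO replicates 2 or 3 or any one control library. All 4 members that passed the filter were called higher and none of their groups overlapped, which holds for 15.2% of tested genes in that direction. A gene at 0 in control can pass this filter only if it is high in 2KO, and the members were chosen on this contrast, so nothing is read from that count.

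Compared per length of exon, Dmrt3 had the highest mean level in 2KO. It was at 6.06 ± 1.44 CPM per kb (SD, n = 3). Dmrt2 (2.55 ± 1.85), Dmrt1 (1.93 ± 0.748) and Dmrta2 (1.87 ± 0.170 CPM per kb) followed, and these 3 did not differ beyond their spread. Dmrta1 (0.00312 ± 0.0054 CPM per kb) came last. In control the order was Dmrta2 (0.106 CPM per kb), Dmrt2 (0.0101), and Dmrt1, Dmrt3 and Dmrta1 at 0.

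The members did not all vary together over the 2KO libraries. Dmrt1 and Dmrt3 were both highest in 2KO replicate 3, at 1.40 and 1.25 times their own 2KO mean, and lowest in replicate 2, at 0.621 and 0.772 times. Dmrt2, the third gene of the cluster, was 1.83 times its mean in replicate 2 and 0.474 and 0.698 times in replicates 1 and 3. Per kb, Dmrt3 exceeded Dmrt1 by 3.15, 3.91 and 2.81 times in the 3 libraries, whereas it exceeded Dmrt2 by 4.93 and 4.25 times in replicates 1 and 3 and equalled it in replicate 2 (1.01 times). Dmrta2 ranged only from 0.913 to 1.10 times its mean. With 3 libraries no correlation is given. 2KO replicates 1 and 2, both high in Xist, were at 2.82 and 10.9 CPM of Dmrt2, and the part of sex in these differences was not tested.

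**Figure D3:**
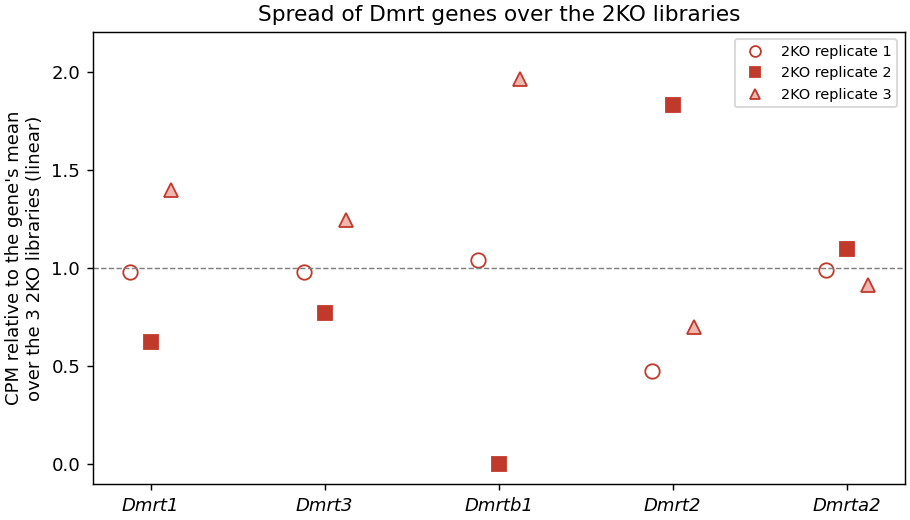
CPM of each gene divided by its own mean over the 3 2KO libraries (y axis, linear; the dashed line marks 1), with the replicate given by the shape. Replicate 2 (filled square) is the lowest for Dmrt1, Dmrt3 and Dmrtb1, at 0.621, 0.772 and 0, and the highest for Dmrt2 and Dmrta2, at 1.83 and 1.10.

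Other genes with a DM domain were almost silent. Of 6 further rows, Dmrtb1, which acts in the switch of mouse spermatogonia to meiosis, had 18, 0 and 34 counts in the 2KO libraries (0.706, 0 and 1.33 CPM) and 0 in every control library. Its order over the 2KO libraries was that of Dmrt1 and of Dmrt3, lowest in replicate 2 and highest in replicate 3. Over the group Dmrtb1 was at least 19.2-fold higher, though 1 of the 3 2KO libraries had no count. Dmrtc1a had 9 counts in 2KO replicate 3 and none elsewhere. Dmrtc1b, Dmrtc1c1, Dmrtc1c2 and Dmrtc2 had 0 counts in all 6 libraries. None of the 6 passed the filter, so none was tested. The noncoding gene 2610016A17Rik, which ends just before the Dmrt2 start on the other strand, had 1, 4 and 0 counts in 2KO and 0 in control.

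None of the tested genes next to the cluster on chromosome 19 passed. Among the 5 nearest protein-coding genes on each side, 9 had a row, 6 could be tested, and edgeR called none (DESeq2 and limma-voom called none either, while 1 was higher and 1 lower at an unadjusted p under 0.05). Kank1, a regulator of the actin cytoskeleton that ends 71.1 kb before Dmrt1, was at 155, 173 and 236 CPM in 2KO and at 159, 125 and 113 CPM in control, and these groups overlap (log2 fold change 0.50, SE 0.21, edgeR adjusted p = 0.202). Dock8, a guanine nucleotide exchange factor known for its role in immune cells, was at 28.9, 29.3 and 59.8 CPM in 2KO and at 86.8, 61.4 and 56.4 CPM in control (log2 fold change -0.79, SE 0.32, adjusted p = 0.178, and 0.0318 without 2KO replicate 3). Smarca2, an ATPase of the SWI/SNF remodeller that starts 926 kb beyond Dmrt2, was at 156, 249 and 278 CPM in 2KO and at 186, 184 and 202 CPM in control (log2 fold change 0.25, SE 0.22, adjusted p = 0.577).

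The other tested neighbours of the cluster were Cbwd1 (log2 fold change -0.03), Vldlr, a lipoprotein receptor (0.65), and Pum3 (0.10), with edgeR adjusted p = 0.971, 0.433 and 0.818. Foxd4, a forkhead factor gene 604 kb before Dmrt1, had counts only in 2KO replicate 3 (0.470 CPM). Gm815 was at 0 in 2KO and at 0.0355, 0.129 and 0.294 CPM in control, and Kcnv2 had counts only in control replicate 1 (0.0709 CPM). Both were too low to be tested.

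**Figure D4:**
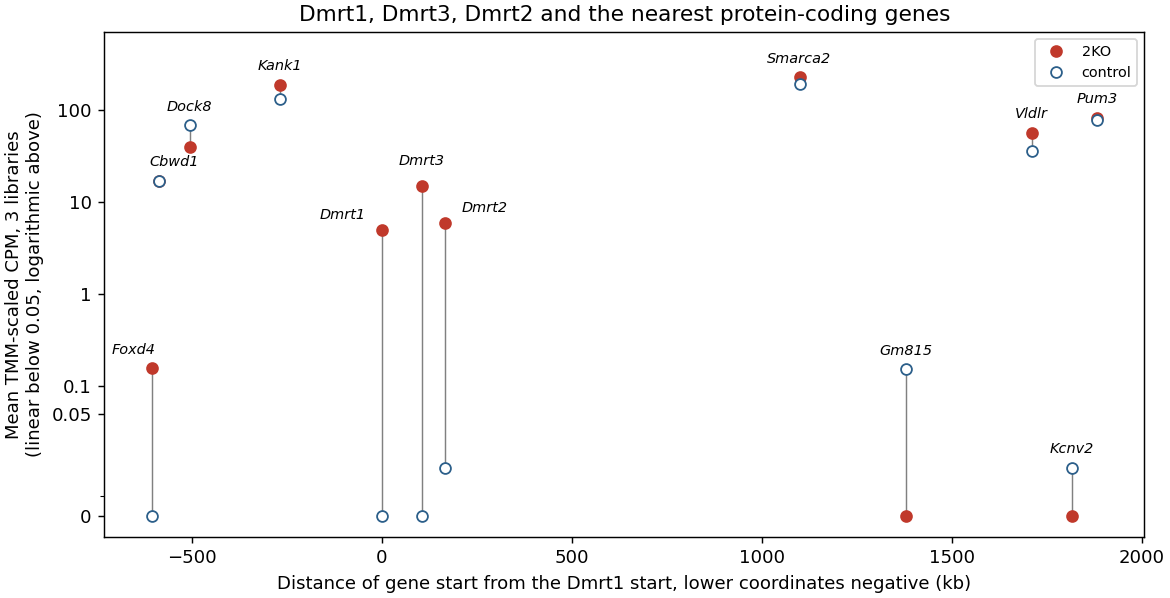
Mean TMM-scaled CPM over 3 libraries (y axis, linear below 0.05 and logarithmic above) of Dmrt1, Dmrt3, Dmrt2 and their nearest protein-coding neighbours, by the distance of each gene's start from that of Dmrt1 in kb (x axis), 2KO in filled red and control in open blue. The 3 Dmrt genes lie at 4.99 to 14.8 CPM in 2KO and at or near 0 in control, while Kank1 and Smarca2 exceed 100 CPM in both groups.

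Near Dmrta1, the member with 1 count in all, 1 of 5 tested neighbours passed. Cdkn2a, which encodes the cell cycle inhibitor p16INK4a and ARF and is a classical Polycomb target, lies 385 kb before Dmrta1. It was at 2.55, 0.567 and 1.14 CPM in 2KO and at 0 in all control libraries, at least 41.0-fold higher (edgeR adjusted p = 0.0166, and 0.0541 without 2KO replicate 1). Cdkn2b, its neighbour and the gene of p15INK4b, was at 3.998, 3.47 and 5.33 CPM in 2KO and at 0.532, 1.52 and 0.882 CPM in control (log2 fold change 2.12, SE 0.58, adjusted p = 0.0528). Mtap, an enzyme of methionine salvage, was at 32.8 ± 6.69 CPM in 2KO and 22.1 ± 5.60 in control (adjusted p = 0.245), and Elavl2, which encodes a neuronal RNA-binding protein, at 2.90 ± 2.04 and 0.450 ± 0.207 CPM in 2KO and control (adjusted p = 0.0659). At an unadjusted p under 0.05, 3 of the 5 were higher, as they were by DESeq2, and limma-voom called 2.

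Dmrta2 had a neighbour at close range, Faf1, which encodes a FAS-associated factor and ends 14.1 kb before it. Faf1 was at 48.5, 41.0 and 49.6 CPM in 2KO and at 50.8, 64.3 and 49.9 CPM in control (log2 fold change -0.25, SE 0.20, edgeR adjusted p = 0.549). Cdkn2c, another cell cycle inhibitor 311 kb away, was at 4.15 ± 1.26 CPM in 2KO and 7.47 ± 1.85 in control (adjusted p = 0.26). None of the 7 tested neighbours of Dmrta2 passed with edgeR, DESeq2 or limma-voom, and 0 had an unadjusted p under 0.05. Elavl4, the nearest gene on the other side, had 0.706, 0 and 0.0392 CPM in 2KO and 0 in control.

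Genes of the tissues in which Dmrt factors are known to act were compared through 5 lists, with 128 genes in all, of which 71 were tested. Of these 71 genes 27 rose and 2 fell in 2KO, while 6.61% of all tested genes rose and 2.42% fell. The lists were chosen with earlier results of these data known, so nothing is read from these counts. A gene silent in control could be tested only where it was high in 2KO, which tilts these counts and the medians below toward rises, and some genes, Wt1, Pax3 and Emx2 among them, stand in 2 lists each. The median log2 fold change of all tested genes was -0.02.

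Of the list of gonadal soma and sex determination, the setting of Dmrt1, 10 of 25 tested genes rose, none fell and 15 did not pass (median log2 fold change 0.99; none fell by DESeq2 or limma-voom, or at an unadjusted p under 0.05). Wt1, needed for the gonadal ridge and the kidney, was at 16.5, 13.2 and 5.92 CPM in 2KO and at 0 in control, at least 357-fold higher (edgeR adjusted p = 0.000969). Gata4, which works with WT1 in the gonad and is also a heart factor, averaged 21.4 ± 3.17 CPM in 2KO and 0.0453 ± 0.0222 in control (log2 fold change 8.77, adjusted p = 3.5e-05). The groups did not overlap for either gene.

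In the same list, Foxl2, the factor that maintains ovarian granulosa cells and opposes DMRT1 in the mouse gonad, was at 0.510, 1.13 and 3.22 CPM in 2KO and at 0 in control (adjusted p = 0.0178, 0.0673 without 2KO replicate 3 and 0.0502 without control replicate 3). Its opposite-strand transcript Foxl2os was at 7.64, 2.97 and 6.16 CPM in 2KO and at 0 in control (at least 163-fold higher, adjusted p = 0.00202), and reads of the pair cannot be told apart where they overlap. Lhx9, a factor of the gonadal ridge, had 3.29, 0.901 and 1.22 CPM in 2KO and 1 count in control (adjusted p = 0.0107), which makes the ratio 157 with a 95% counting interval of 27.8 to 6260. Sox9, the effector of testis determination that is also a follicle gene, was at 331 ± 158 CPM in 2KO and 360 ± 130 in control (adjusted p = 0.895), and Wnt4 at 280 ± 93.2 and 329 ± 86.5 CPM in 2KO and control (adjusted p = 0.724). The number of risen genes was 6 without 2KO replicate 3.

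Of the markers of gonadal and germ cells, those other than Inha, Star and Foxl2 averaged at most 0.459 CPM in 2KO (Ddx4) and 0.612 CPM in control (Cyp11a1). Inha and Star ran at 22.1 to 42.0 and 9.25 to 24.0 CPM in 2KO and at 26.8 to 53.5 and 13.4 to 15.7 CPM in control. Nr5a1, the steroidogenic factor that defines the gonadal soma, was at 0.235, 0 and 0.196 CPM in 2KO and at 0.213, 0 and 0 CPM in control. Amh did not exceed 0.392 CPM in any library, and Dazl, a germ cell gene, did not exceed 0.133. The summed level of the 10 gonadal and germ cell markers was 33.1 to 62.1 CPM in 2KO and 42.7 to 70.0 CPM in control, and 1 of the 5 tested, Foxl2, rose.

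In the germ cell list, a second setting of Dmrt1 and that of Dmrtb1, 9 genes were tested. None rose by edgeR or limma-voom, 0 were higher at an unadjusted p under 0.05, and 1 fell, with a median log2 fold change of 0.56. DESeq2, which tested 18 genes of the list, called 1 higher, while edgeR with no filter on low counts called 0 of 18. Sall4, a factor of spermatogonia and pluripotent cells that failed the filter and is named after its values were seen, was at 0.274, 1.84 and 0.98 CPM in 2KO and at 0, 0.0645 and 0 CPM in control (87 against 2 counts), and the groups did not overlap. The fall was that of Prdm1, a repressor that acts in germ cell specification and is also expressed in epidermis and sebaceous lineage, at 20.6 ± 7.01 CPM in 2KO and 80.3 ± 25.7 in control (log2 fold change -1.96, edgeR adjusted p = 0.00613). Zbtb16, a gene of spermatogonial stem cells, was at 109 ± 60.5 and 86.6 ± 30.2 CPM in 2KO and control (adjusted p = 0.719), and Tdrd1, a gene of the piRNA pathway, at 57.4 ± 12.9 and 38.9 ± 23.0 CPM in 2KO and control (adjusted p = 0.445, and 0.0424 without control replicate 2). Of 11 genes tested in each case, 1 rose without 2KO replicate 1 and 1 without control replicate 2.

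In the list of the cortical hem and forebrain, where Dmrta2 and Dmrt3 act, 8 of 18 tested genes rose, 1 fell and 9 did not pass (median log2 fold change 3.40). Zic1 and Zic2, zinc finger factors of the dorsal neural tube, averaged 48.4 ± 6.31 and 3.65 ± 0.794 CPM in 2KO against 0.0464 ± 0.0545 and 0.0108 ± 0.0186 CPM in control (edgeR adjusted p = 3.5e-05 and 0.00197). Otx1, a head factor, was at 22.6 ± 7.02 and 0.152 ± 0.210 CPM in 2KO and control (adjusted p = 0.00113), and Pax6, a factor of eye and cortex, at 10.1 ± 1.69 and 0.580 ± 0.352 CPM in 2KO and control (adjusted p = 0.00249). The 1 gene that fell was Dlx2, a factor of forebrain interneurons, named after its value was seen (log2 fold change -1.63, adjusted p = 0.0258). Lhx2, a cortical factor that is also a gene of follicle progenitors, was at 152 ± 21.2 CPM in 2KO and 291 ± 113 in control (adjusted p = 0.0558). It passed as lower in 5 of 17 alternatives. The adjusted p was 0.0371 without control replicate 2, 0.0146 with the replicate block, 0.0145 with DESeq2, 0.021 with no low-count filter and 0.0466 with library totals only. Wnt2b, a ligand of the hem, was at 10.4 ± 3.69 and 10.9 ± 5.45 CPM in 2KO and control (edgeR adjusted p = 0.957).

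The list named for dorsal spinal interneurons, the setting of Dmrt3, also holds ventral genes such as En1. Of its tested genes 7 of 10 rose, none fell and 3 did not pass (median log2 fold change 5.33, or 4.82 with 4 genes at 0 in control set to their bound; none fell by DESeq2 or limma-voom, or at an unadjusted p under 0.05). Beside Wt1, they included Pax2, at 2.59, 3.14 and 3.49 CPM in 2KO and at 0 in control (at least 92.0-fold higher, edgeR adjusted p = 0.00331), and Gbx2, at 1.65, 0.734 and 1.22 CPM in 2KO and at 0 in control (at least 35.1-fold higher, adjusted p = 0.0144). Pax3 was at 23.8 ± 7.004 and 0.444 ± 0.0506 CPM in 2KO and control (log2 fold change 5.73, adjusted p = 9.57e-05), and En1, which marks ventral interneurons and ventral ectoderm, at 4.21 ± 2.32 and 0.134 ± 0.0969 CPM in 2KO and control (adjusted p = 0.00689). The call of Evx1, at 1.49, 0.601 and 0.588 CPM in 2KO and at 0 in control (adjusted p = 0.023), was lost without any one library (adjusted p = 0.0553 to 0.0736). Lmx1b (11.9 ± 2.95 and 8.17 ± 5.74 CPM in 2KO and control) and Isl1 (1.69 ± 0.478 and 2.40 ± 0.581 CPM in 2KO and control) did not pass (adjusted p = 0.663 and 0.688).

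Of the list of the somite and dermomyotome, the setting of Dmrt2, 6 of 13 tested genes rose, none fell and 7 did not pass (median log2 fold change 1.25; limma-voom called none lower, DESeq2 called 1, and 1 was lower at an unadjusted p under 0.05). Pax9, a factor of the sclerotome and pharyngeal pouches, was at 9.99, 13.1 and 14.7 CPM in 2KO and had 1 count in control (edgeR adjusted p = 0.000179), which makes the ratio 1134 with a 95% counting interval of 203 to 44830. Tbx18, which keeps the anterior part of somites distinct, was at 6.98 ± 0.331 and 0.0869 ± 0.0999 CPM in 2KO and control (adjusted p = 0.00237), and Twist1, a factor of mesoderm, at 7.90 ± 2.21 and 0.547 ± 0.315 CPM in 2KO and control (adjusted p = 0.00463). Foxc2 was at 0.823, 1.03 and 5.25 CPM in 2KO and at 0, 0 and 0.163 CPM in control (adjusted p = 0.0463), and its call was lost without 2KO replicates 2 or 3 or control replicates 1 or 2 (adjusted p = 0.0661, 0.189, 0.117 and 0.111). Lfng, a modifier of Notch, was at 26.5 ± 0.447 and 43.4 ± 10.1 CPM in 2KO and control (adjusted p = 0.0896), and Foxc1 at 33.9 ± 16.9 and 34.9 ± 14.03 CPM in 2KO and control (adjusted p = 0.971).

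**Figure D5:**
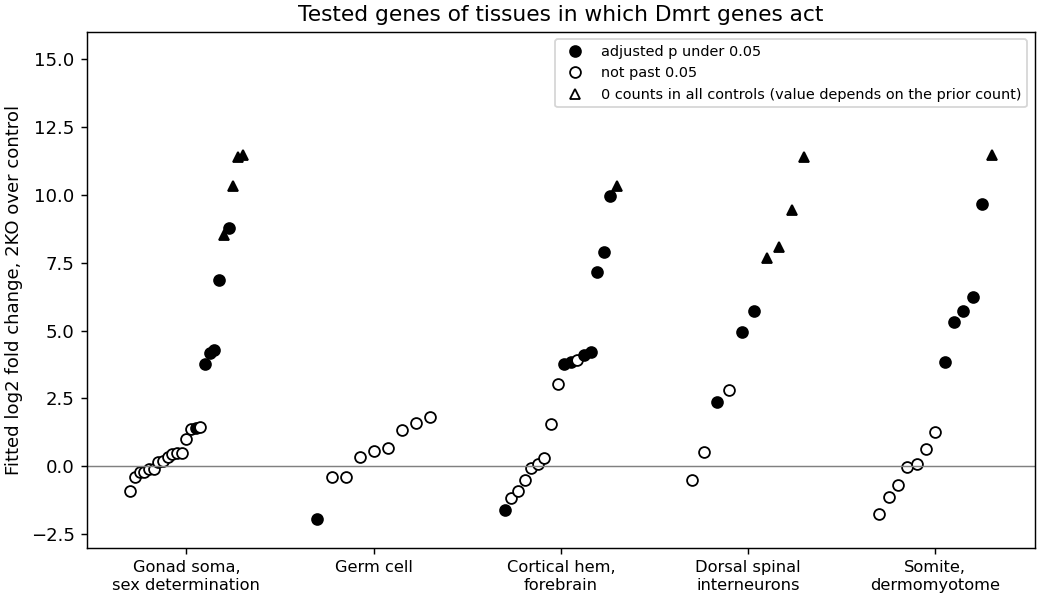
Fitted log2 fold change of 2KO over control (y axis) of every tested gene in the 5 lists (x axis), ordered by value within a list, filled where the edgeR adjusted p was under 0.05 and drawn as a triangle where all control libraries had 0 counts. Values of triangles depend on the prior count, and in the germ cell list the 1 call is the fall of Prdm1 at -1.96.

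Markers of other cell types of those settings were measured beside these lists. Of 10 dermal fibroblast markers 9 were tested and 2 rose, Pdgfra (7.06, 7.31 and 16.2 CPM in 2KO, 0.709, 1.26 and 0.719 CPM in control) and Fbn1, while the summed level of the list was 1101 to 1371 CPM in 2KO and 1231 to 1412 CPM in control. By edgeR none fell, while DESeq2 and limma-voom each called 1 lower. Postn was lower at an unadjusted edgeR p under 0.05 (453 ± 111 and 755 ± 104 CPM in 2KO and control, adjusted p = 0.0598). Markers of neurons and Schwann cells summed to 11.8 to 14.3 CPM in 2KO and 7.02 to 12.4 CPM in control, and none of the 7 tested passed by edgeR, DESeq2 or limma-voom or had an unadjusted p under 0.05. Skeletal muscle markers summed to 1.07 to 3.02 CPM in 2KO and 2.03 to 3.82 CPM in control. Of 2 tested, edgeR and limma-voom called none, none had an unadjusted p under 0.05, and DESeq2, which tested more rows, called 1 higher. Of 12 follicle markers 6 fell, Shh, Lrig1, Krt25, Krt27, Krt71 and Krt35, and edgeR called none higher (DESeq2 and limma-voom called 1, and 1 had an unadjusted p under 0.05). The 12 markers summed to 1696 to 2205 CPM in 2KO and 1785 to 2487 CPM in control. These sums include Krt17, the most abundant of the 12 in 2KO, which went the other way. It was at 790 ± 217 CPM in 2KO and 427 ± 85.8 in control (edgeR adjusted p = 0.0514). Krt25, a keratin of the inner root sheath, was at 0 in all 2KO libraries. Markers of interfollicular epidermis summed to 1227 to 3794 CPM in 2KO and 3102 to 11510 CPM in control, with 1 of 8 tested, Krt77, lower by edgeR. DESeq2 called 3 lower and limma-voom 2, and 3 were lower at an unadjusted p under 0.05, while none was higher by any of these. Merkel cell markers summed to 17.5 to 50.7 CPM in 2KO and 7.13 to 15.3 CPM in control. Of 5 tested, edgeR called 1, Krt18, higher (45.7, 12.7 and 13.2 CPM in 2KO, 1.03, 3.13 and 0.850 CPM in control) and none lower. DESeq2 called 2 lower and limma-voom none. Krt20 was lower at an unadjusted edgeR p under 0.05 (0.349 ± 0.251 and 2.06 ± 0.768 CPM in 2KO and control). Atoh1, which defines these cells, was at 0, 0 and 0.196 CPM in 2KO and at 0.887, 3.49 and 0.229 CPM in control. By edgeR no marker of melanocytes (16.6 to 59.5 CPM in 2KO, 24.6 to 33.1 in control), endothelium (3.60 to 15.3 and 4.94 to 11.1 CPM in 2KO and control) or immune cells (13.7 to 19.95 and 27.6 to 31.5 CPM in 2KO and control) passed, while DESeq2 called 1 endothelial marker higher and 1 immune marker lower, as did an unadjusted p under 0.05. Cd207, the Langerhans cell marker, was at 0 in all 6 libraries. The part of a change in cell makeup in the levels of the Dmrt genes was not tested.

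The genes whose profile over the 6 libraries lay nearest to each member were found by the Euclidean distance of log2(CPM + 1), over all tested genes with an established symbol. Nearest to Dmrt1 were Foxl2os (distance 0.575), Shc3, an adaptor protein of neurons (0.634), and Unc5a, a netrin receptor (0.644). Nearest to Dmrt3 were Onecut2 (0.486), a homeobox factor of liver and neurons, Pax9 (0.620) and Utf1 (0.722), a chromatin factor of pluripotent cells. Near Dmrt2 were Nkx2-9 (0.552) and the adenosine receptor Adora1 (0.721), and nearest to Dmrta2 were Irs4 (0.400), Glp1r (0.431) and Osr1 (0.448), which encode an insulin receptor substrate, the receptor of an incretin hormone and a factor of kidney mesoderm.

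Between members, the distance was 2.48 for Dmrt1 and Dmrt3, 1.775 for Dmrt1 and Dmrt2 and 2.79 for Dmrt2 and Dmrt3. Dmrta2 lay 1.11 from Dmrt1, 1.26 from Dmrt2 and 2.39 from Dmrt3. The genes just named were selected as the nearest of all tested genes, so the distances between members are not set against theirs. These distances rest on 6 libraries and on level as well as pattern.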

How the data were processed

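From sorted cells, 10 ng of total RNA per library was amplified before sequencing of 100-nt single reads on an Illumina instrument, per the labels' protocols. The authors deposited 1 file per library of raw counts, whole reads per gene symbol, made per the submitters' processing notes with DESeq2 1.6.3, HTSeq 0.6.1, Cufflinks 2.2.1 and TopHat2 2.0.13 on mm10. The roles of these tools, the annotation and the strand setting were not given in the sources used here. Intervals and floors cover counting error only, since amplified reads carry no molecular identifiers. From the counts, genes were filtered with filterByExpr of edgeR 4.0.16 (R 4.3.3), scaled by TMM and compared by edgeR's quasi-likelihood test with no covariate, tested on simulated data, with Benjamini-Hochberg adjustment over 14972 genes and a threshold of 0.05. CPM per kb uses the union of GENCODE exons. The SE of a log2 fold change was derived from the F statistic of the quasi-likelihood test. Alternatives were DESeq2 1.42.0, limma-voom (limma 3.58.1), other scalings and filters, an Xist covariate, a replicate block and left-out libraries. Named genes were the members, other DM domain genes, the 5 nearest protein-coding genes on each side, for each list the 6 called genes of largest change and the 2 most abundant uncalled, and the 3 genes nearest in profile. Fibroblast, follicle, Merkel cell and interfollicular markers were named after their values were seen. The members and lists were chosen with earlier results of these data known. Some genes that this rule names are not reported here.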

Additional observations from a re-analysis of the deposited data

How the results depend on the processing

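Over 17 alternatives, the mean level in 2KO ranged from 3.98 to 5.97 CPM for Dmrt1, 12.9 to 16.6 for Dmrt3, 3.51 to 7.66 for Dmrt2 and 5.21 to 5.83 for Dmrta2, and the log2 fold change of Dmrta2 from 4.05 to 4.22. The members were chosen on this contrast, so these ranges are a description. Where libraries were left out, the scaling here was fitted anew, so these means differ slightly from those given with the members. The number of genes higher in 2KO was 1486 with DESeq2 and 309 without the replicate-3 pair of libraries, and 615 to 854 with 1 library left out. The number lower was 753 with DESeq2, 237 with Xist as a covariate, 72 without the replicate-3 pair and 184 to 347 with 1 library left out. Same-numbered libraries did not pair (correlations of deviations 0.33, 0.0982 and -0.16), and with the replicate block 1142 genes were higher and 540 lower. Genes that passed in neither fit changed sign, and the cause was not tested. With Xist as a covariate the log2 fold change was 0.14 for Cbwd1, 0.16 for Foxc1 and 0.034 for Ring1. Without the replicate-3 pair it was -0.31 for Zbtb16, 0.11 for Wnt2b and -0.054 for Rnf2, and without the replicate-1 pair 0.25 for Cbwd1, -0.016 for Pum3 and 0.045 for Foxc1. With 1 library left out it ranged from -0.35 to 0.12 for Cbwd1, -0.50 to 0.34 for Foxc1, -0.57 to 0.23 for Sox9, -0.39 to 0.036 for Wnt4, -0.34 to 0.40 for Wnt2b and -0.090 to 0.70 for Zbtb16.
Without the replicate-3 pair, 5 genes of the gonadal, 5 of the forebrain and 3 of the spinal list rose, and without the replicate-1 pair 4 of the spinal list. Cdkn2a lost its call with Xist as a covariate (edgeR adjusted p = 0.0543) and without the replicate-1 (0.0758) or replicate-3 pair (0.107), and Cdkn2b passed with DESeq2 (0.00263), limma-voom (0.0478) and no low-count filter (0.0472). Calls were also lost without the replicate-3 pair for Lhx9 (0.0909), Gbx2 (0.103), En1 (0.0826), Foxl2 (0.13), Evx1 (0.116) and Foxc2 (0.113), without the replicate-1 pair for Lhx9 (0.0589), Gbx2 (0.0658), Evx1 (0.0968) and Foxc2 (0.0817), with Xist as a covariate for Evx1 (0.072) and Foxc2 (0.1), and with limma-voom for Foxc2 (0.0598). With the 250 bases before the start alone, the CpG ratio was 0.812 at Dmrta2, 0.587 at Dmrt2, 0.516 at Dmrt3 and 0.281 at Dmrta1, against a median of 0.373. Of the nearest genes named, all but Shc3 were kept with a pseudocount of 0.5 CPM, and none with Pearson's r in place of distance. Dmrta1, Dmrtb1 and Dmrtc1a had too few counts to pass the low-count filter, and levels under the floor were not detectable at this depth.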
